A study of Mus musculus with 25 samples.

Results

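The AMPA and kainate receptor subunits are the 9 genes *Gria1* to *Gria4* and *Grik1* to *Grik5*, taken by symbol from a table of 50559 genes. All 9 are listed in the table, and all 9 passed the filter of at least 10 counts summed over the immunoprecipitated libraries. Their transcripts were measured on ribosomes of spinal cord cholinergic neurons. Mice of the genotype *ChAT-Cre;RiboTag fx/+;Bmal1 fx/fx* (*ChAT-BKO*) were compared with *ChAT-Cre;RiboTag fx/+* controls, all of them 6-mo-old C57BL/6J males kept in 12 h light and 12 h dark. Both genotypes carry *ChAT-Cre* and a floxed RiboTag allele, which puts an HA tag on a ribosomal protein wherever Cre is active, and the controls lack the floxed *Bmal1* allele. Spinal cords were taken in the light period at ZT8 and in the dark period at ZT20, with 6 mice for each of the 4 conditions and 1 cord for each HA immunoprecipitate (IP). The 25th library is an input, RNA of whole spinal cord before the IP, pooled from wild-type and knockout animals. Cre is driven by *ChAT*, a gene shared by somatic motor neurons, autonomic motor neurons, and cholinergic interneurons of the cord, and the IP does not separate these.

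AMPA receptors carry most of the fast excitatory current at synapses of the central nervous system. They are tetramers of GluA1 to GluA4, encoded by *Gria1* to *Gria4*, and a receptor that holds edited GluA2 passes hardly any calcium, whereas one without it is permeable to calcium. Motor neurons receive glutamatergic input from primary afferents, spinal interneurons, and descending axons, and calcium entry through AMPA receptors has long been studied in motor neuron disease. Kainate receptors are tetramers as well, in which GluK1 to GluK3 form channels by themselves and GluK4 and GluK5, the high-affinity subunits, need one of those as a partner.

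The low calcium permeability of GluA2 comes from a codon in the loop that lines the pore. In the genome this codon reads glutamine in all 9 genes. In the RNAs of GluA2, GluK1, and GluK2 it can be changed to arginine by the editing enzyme ADAR2, encoded by *Adarb1*. The 33 bases around it are shown because this codon decides how much calcium the channel passes. They were read from reference transcripts of GRCm38 (mm10) and run 5′ to 3′ on the coding strand, with the codon in capitals.
*Gria1* (GluA1): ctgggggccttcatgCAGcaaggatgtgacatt
*Gria2* (GluA2): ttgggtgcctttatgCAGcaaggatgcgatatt
*Gria3* (GluA3): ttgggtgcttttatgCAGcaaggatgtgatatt
*Gria4* (GluA4): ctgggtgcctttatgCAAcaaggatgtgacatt
*Grik1* (GluK1): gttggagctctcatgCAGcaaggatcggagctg
*Grik2* (GluK2): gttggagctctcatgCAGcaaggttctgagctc
*Grik3* (GluK3): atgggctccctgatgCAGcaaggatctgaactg
*Grik4* (GluK4): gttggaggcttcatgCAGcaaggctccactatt
*Grik5* (GluK5): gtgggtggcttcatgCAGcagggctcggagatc

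The *Gria2* window lies at chr3:80706896-80706928 on the minus strand, in exon 11 of 16, and its capitals are codon 607 of the coding sequence. *Gria2* and *Gria3* share 31 of the 33 bases and *Gria1* and *Gria4* share 30, as do *Grik1* and *Grik2*. Between an AMPA and a kainate gene, 21 to 24 bases are the same. The windows of *Grik1*, *Grik2*, and *Grik3* cross an exon boundary. The deposited values are counts per gene, so the share of edited RNA was not measured here.

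The genes themselves are long. In GRCm38, *Gria1* spans chr11:57011387-57330244 (plus strand), *Gria2* chr3:80681450-80802835 (minus), *Gria3* chrX:41400854-41678601 (plus), and *Gria4* chr9:4417896-4796234 (minus). *Grik1* spans chr16:87895900-88290265 (minus), *Grik2* chr10:49094833-49788766 (minus), *Grik3* chr4:125490700-125714173 (plus), *Grik4* chr9:42518135-42944493 (minus), and *Grik5* chr7:25009849-25072346 (minus). *Grik2* is the longest of the 9 at 694 kb and *Grik5* the shortest at 62.5 kb. No annotated gene on the other strand overlaps any of the 9. On the same strand, small noncoding or pseudogene models lie inside 6 of them, among them 6 such models inside *Grik2*.

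Total counts on genes ran from 4.04 to 31.7 M per IP library (median 12.0 M), with medians of 9.20 M in controls and 15.1 M in *ChAT-BKO* neurons at ZT8 and 12.4 M and 7.62 M at ZT20. The input held 7.40 M. At these depths a count of 0, read as at most 3 counts, allows up to 0.0947 CPM (the counts scaled to a common library total) in the deepest IP library and 0.743 CPM in the shallowest, for counting error only. All subunits lay above this level in every IP library. The counts of the lowest, *Grik1* and *Grik3*, ran from 24 to 237 and from 27 to 253, and those of the highest, *Gria4*, from 523 to 3832. *Bmal1*, listed as *Arntl*, lay between 6.22 and 10.8 CPM in the 12 control libraries and between 1.35 and 3.30 CPM in the 12 *ChAT-BKO* libraries, without overlap. All 7 cholinergic markers were above the input, by a median log2 ratio of 2.36, and none of the listed markers of excitatory and inhibitory neurons, glia, endothelium, and skeletal muscle was.

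Levels of different genes can be compared only per length, and CPM was therefore divided by the summed length of each gene's exons in kb. *Gria4* was the highest of the 9 in the IP, at 19.5 ± 1.29 CPM per kb (SD over 24 libraries). *Grik5* followed at 13.8 ± 1.12, *Gria3* at 11.8 ± 0.960, *Gria1* at 9.47 ± 0.699, and *Grik4* at 5.56 ± 0.610 CPM per kb. *Gria2* was at 1.84 ± 0.249 CPM per kb, and *Grik2*, *Grik1*, and *Grik3* were at 1.07 ± 0.150, 1.06 ± 0.191, and 0.879 ± 0.177. Per kb of exon the order held from library to library near the top, with *Gria4* above *Grik5* in 24 of 24 libraries and *Grik5* above *Gria3* in 22. It was not resolved near the bottom, where *Grik2* was above *Grik1* in 13 of 24 libraries. The choice of length moved part of the order. With the longest transcript in place of all exons, *Gria4* was above *Gria3* in 13 of 24 libraries, at 22.6 and 22.4 CPM per kb. *Gria3* and *Grik5* changed places, *Gria3* being above *Grik5* in 24 of 24 libraries by the longest transcript (22.4 and 17.5 CPM per kb) and by the coding length (43.8 and 24.2). With the coding length *Gria2* stood at 10.8 CPM per kb beside 11.6 for *Grik4*.

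**Figure D1:**
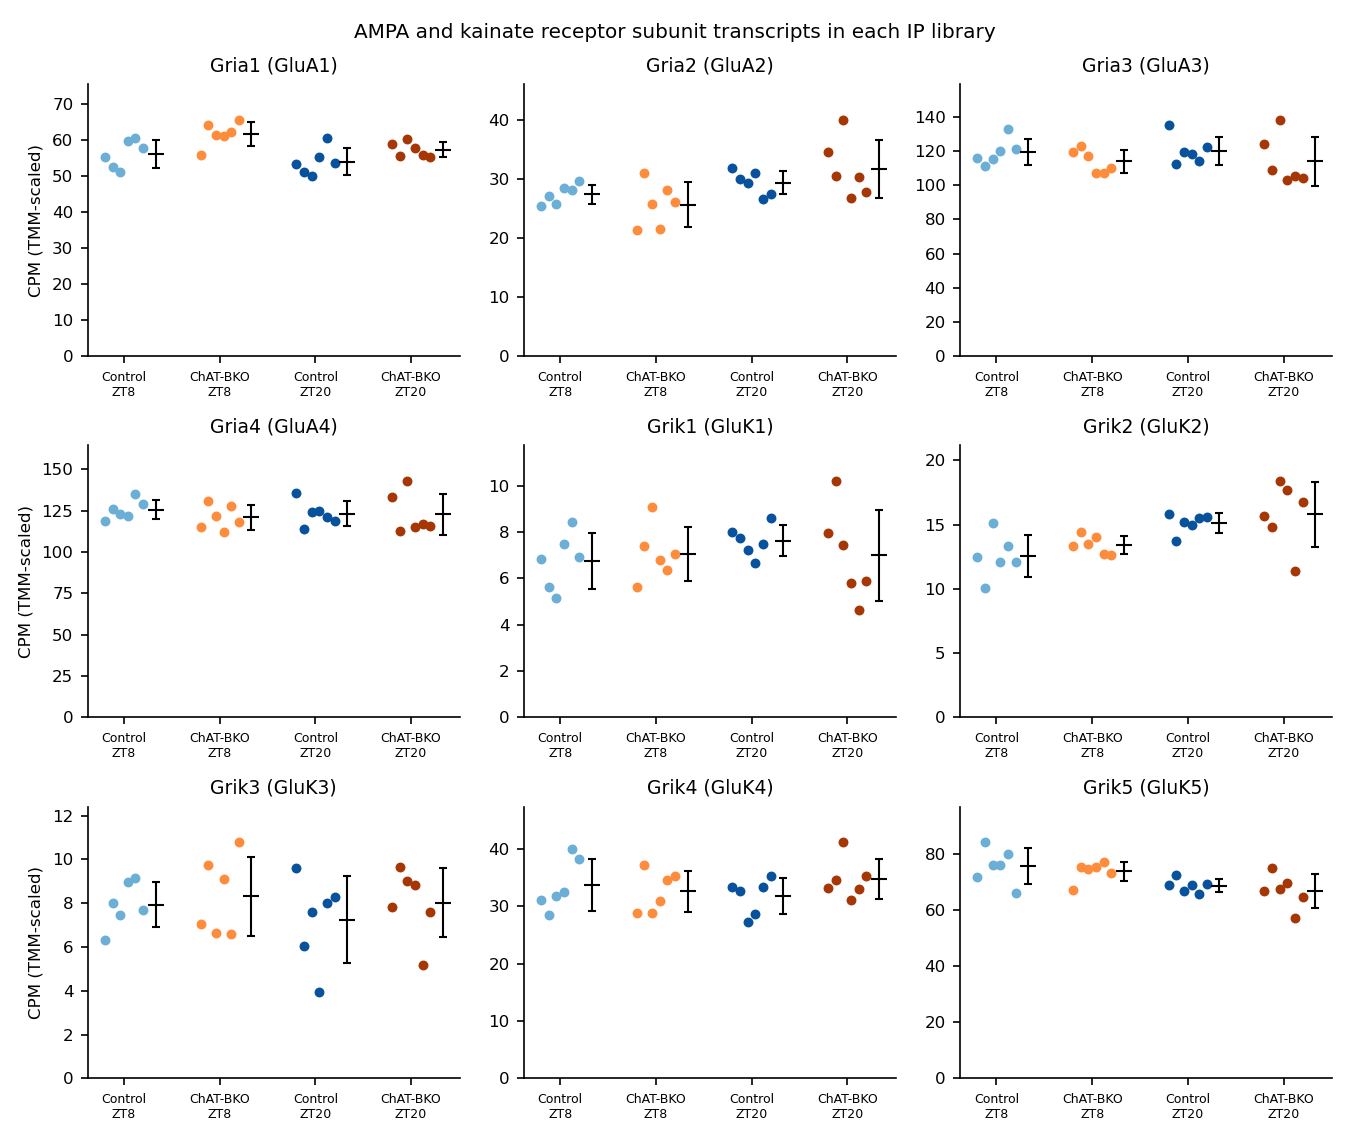
Normalized counts (CPM, linear axes from 0) of the 9 subunit genes in each of the 24 IP libraries, 1 point per library, with the mean and SD of each condition (n = 6) beside the points. The conditions overlap for every subunit, and *Grik2* shows the upward step from ZT8 to ZT20 in both genotypes.

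Within the AMPA family, *Gria4* made up the largest part of the transcripts in the cholinergic IP, 45.8 ± 0.991% per kb of exon (SD, n = 24), ahead of *Gria3* at 27.7 ± 1.17% and *Gria1* at 22.2 ± 1.62%. *Gria2*, which encodes the subunit that limits calcium entry, made up 4.29 ± 0.455%, with 3.36% in the lowest library and 5.23% in the highest. In the input the *Gria2* share was 11.0%, the *Gria1* share 35.1%, the *Gria3* share 16.3%, and the *Gria4* share 37.6%. All 24 IP libraries had a lower share of *Gria1* and *Gria2* and a higher share of *Gria3* and *Gria4* than the input, and this side did not depend on whether exons, the longest transcript, the coding length, or no length was used. The sizes of the shares did depend on it. *Gria4* and *Gria3* had mean IP shares of 38.9% and 38.5% by the longest transcript and 37.6% and 36.1% by the coding length. The *Gria2* share moved as well, since *Gria2* has 15.55 kb of exons and 2.65 kb of coding sequence. Per kb of coding sequence its mean share was 8.88% in the IP and 22.2% in the input, and as a share of plain counts 8.75% in the IP (6.86 to 10.5%) and 21.9% in the input (846 of 3860 counts, exact 95% interval 20.6 to 23.3%).

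Within the kainate family, *Grik5* made up 61.6 ± 2.93% per kb of exon and *Grik4* 24.9 ± 2.39% (SD, n = 24), so that most kainate receptor transcripts encoded the high-affinity subunits. *Grik2* made up 4.82 ± 0.733%, *Grik1* 4.72 ± 0.748%, and *Grik3* 3.91 ± 0.671%. In the input the shares were 51.0% for *Grik5*, 16.1% for *Grik4*, 7.13% for *Grik2*, 9.46% for *Grik1*, and 16.3% for *Grik3*. All 24 libraries lay above the input for *Grik4* and *Grik5* and below it for the other 3, under every choice of length. As plain counts, *Grik3* was 22.0% of the kainate counts of the input (345 of 1567, exact 95% interval 20.0 to 24.2%) and 5.87% of those of the IP. The 4 AMPA subunits together stood at 1.67 to 2.16 times the 5 kainate subunits per kb of exon in the IP (median 1.89) and at 2.09 times in the input. Intervals and floors cover counting error only, and the input has no replicate.

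**Figure D2:**
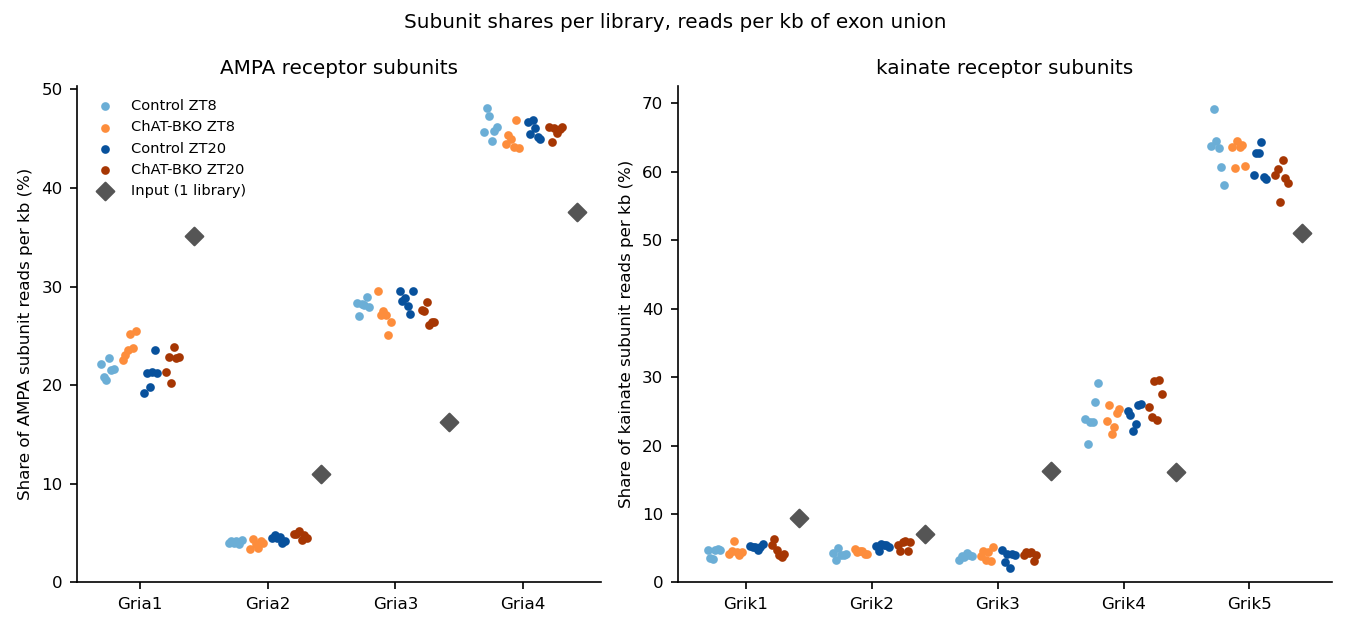
Share of each subunit in the transcripts of its family (percent, CPM per kb of exon), with 1 point per IP library and a diamond for the single input. All 24 IP libraries lie below the input for *Gria1*, *Gria2*, *Grik1*, *Grik2*, and *Grik3* and above it for *Gria3*, *Gria4*, *Grik4*, and *Grik5*.

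Condition means of the shares differed by a few percentage points at most. The *Gria2* share was 4.09 ± 0.173% in controls and 3.86 ± 0.394% in *ChAT-BKO* neurons at ZT8, and 4.45 ± 0.289% and 4.77 ± 0.324% at ZT20 (SD over 6 libraries). The *Gria1* share ran from 21.0% in controls at ZT20 to 24.0% in *ChAT-BKO* neurons at ZT8. The *Grik2* share was 4.11% and 4.47% at ZT8 and 5.27% and 5.44% at ZT20, in controls and *ChAT-BKO* neurons, while the *Grik5* share was 63.3% and 62.8% at ZT8 and 61.3% and 59.1% at ZT20. Shares of 1 family sum to 100%, so a higher share of 1 subunit lowers the others, and no test was run on them.

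The ratio of each IP library to the single pooled input sets the level of each subunit in the IP against that in whole spinal cord. Scaled by library size, *Gria3* and *Grik4* were near the input, with median log2 ratios of 0.10 (-0.10 to 0.38, above 0 in 20 of 24 libraries) and 0.11 (-0.17 to 0.44, above 0 in 16). *Grik5* was at -0.26 and *Gria4* at -0.39, and both were below the input in 24 of 24 libraries. *Grik2* was at -1.07, *Gria1* at -1.33, *Grik1* at -1.48, *Gria2* at -2.01, and *Grik3* at -2.54, so that *Gria2* was 4.02-fold and *Grik3* 5.82-fold lower in the IP. The median of all 21738 genes was -0.45, with 32.1% of them above the input, against 2 of 9 subunits and a subunit median of -1.07. Of all genes, 70.6% had a lower ratio than *Gria3*, 14.0% a lower ratio than *Gria2*, and 8.15% a lower ratio than *Grik3*. TMM scaling over all 25 libraries moved the median of all genes by 0.39 to -0.05, and *Gria4* and *Grik5* then crossed 0, to 0.08 and 0.19, while *Gria2* stayed at -1.56 and *Grik3* at -2.08. By this scaling 4 of 9 subunits were above the input, beside 43.7% of all genes, with a subunit median of -0.63. Fewer cells that express a gene and less RNA per cell cannot be told apart in such bulk ratios. Markers of inhibitory and excitatory neurons were lowered but still present in the IP, at median log2 ratios of -1.79 and -2.88. The part of RNA from other cells in the counts and shares of *Gria1*, *Gria2*, *Grik1*, *Grik2*, and *Grik3* was not tested.

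**Figure D3:**
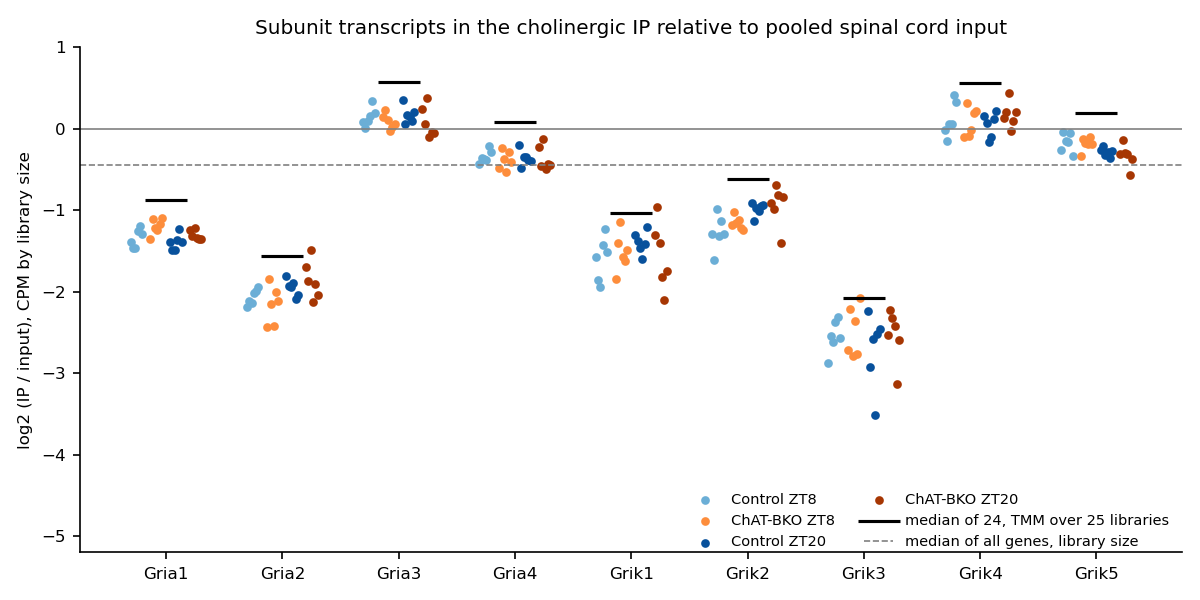
Log2 ratio of each of the 24 IP libraries to the pooled input (CPM by library size, prior count of 2), 1 point per library, with the median after TMM scaling over 25 libraries as a black bar and the median of all genes by library size as a dashed line at -0.45. *Grik3* and *Gria2* lie lowest, and *Gria3* and *Grik4* lie around 0.

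The first comparison asks whether loss of *Bmal1* in cholinergic neurons changes these transcripts. At ZT8, 0 of the 9 subunits passed an adjusted p of 0.05 in edgeR's quasi-likelihood test with Benjamini-Hochberg adjustment, where 0.184% of all genes did, and 1 had an unadjusted p under 0.05, against 4.83% of all genes. *Gria1* had the largest difference. Its lowest, median, and highest libraries were 51.1, 56.5, and 60.6 CPM in controls, against 55.8, 61.7, and 65.5 CPM with *Bmal1* deleted. Of the 6 *ChAT-BKO* libraries 5 were above the highest control, and 1 was inside the control range. The log2 fold change was 0.14 (SE 0.06, unadjusted p = 0.0369, adjusted p = 1.00 from edgeR). *Gria2* differed by -0.10 and *Grik2* by 0.13, and the other 6 by -0.06 to 0.10. DESeq2 and limma voom also called 0 subunits here.

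At ZT20, 0 of 9 subunits were called, beside 0.230% of all genes, and the lowest adjusted p was 0.859 (edgeR). No subunit had an unadjusted p under 0.05, which 6.28% of all genes had, and DESeq2 and limma voom called none either. *Gria1* was at 50.1, 53.5, and 60.5 CPM in controls and 55.2, 56.7, and 60.2 CPM in *ChAT-BKO* neurons (lowest, median, and highest), a log2 fold change of 0.08 (SE 0.06). All 6 *ChAT-BKO* libraries were above the control median and inside the control range. The largest differences were 0.15 (SE 0.17) for *Grik3* and 0.13 (SE 0.09) for *Gria2*.

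Over both time points, 12 *ChAT-BKO* against 12 control libraries, 0 of 9 subunits were called, beside 0.741% of all genes. *Gria1* had a log2 fold change of 0.11 (SE 0.04), an increase of 7.94% that did not pass the adjustment (unadjusted p = 0.00793, adjusted p = 0.326 from edgeR). It was the single subunit with an unadjusted p under 0.05, which 7.04% of all genes had. The other AMPA subunits lay between -0.07 and 0.02 and the kainate subunits between -0.04 and 0.13, with SEs of 0.04 to 0.11. For the difference of the *ChAT-BKO* effect between ZT20 and ZT8, 0 of 9 subunits were called, beside 0% of all genes in edgeR (848 of 21738 genes with an unadjusted p under 0.05), and DESeq2 and limma voom called 0 genes as well. The largest difference of effects was that of *Gria2*, 0.24 (SE 0.13, unadjusted p = 0.0774).

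**Figure D4:**
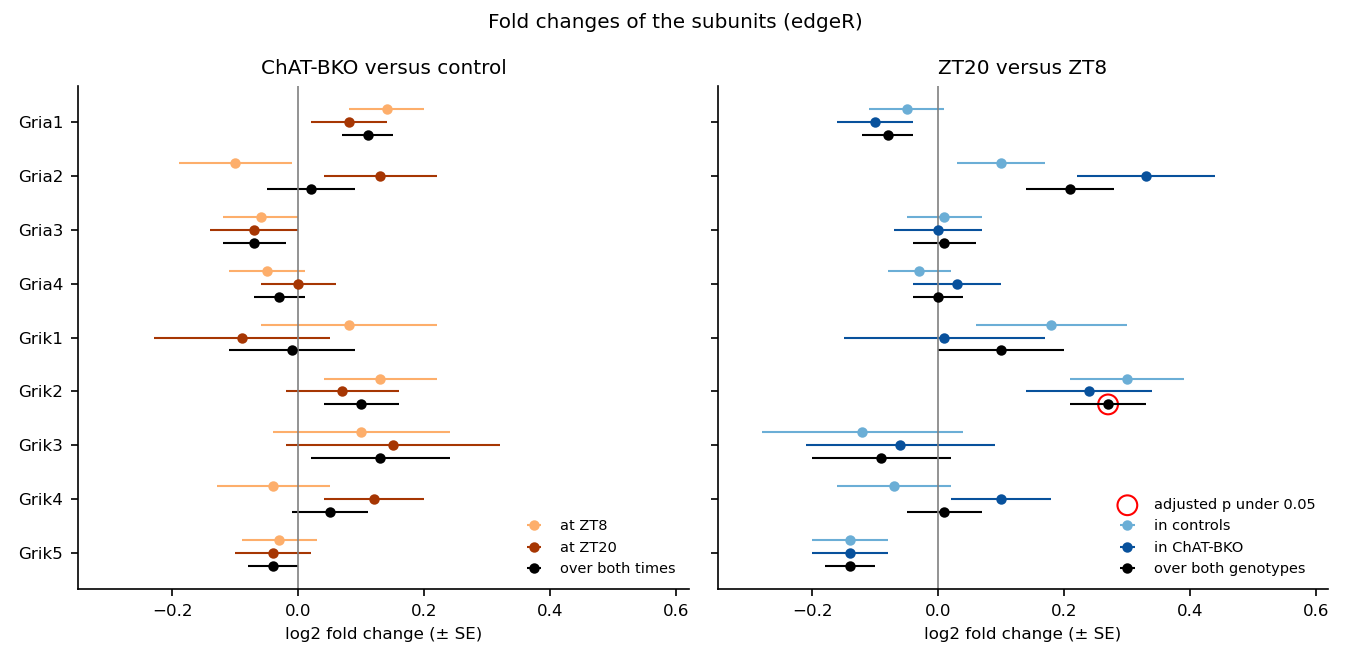
Log2 fold change of the 9 subunits from edgeR, ± an SE derived from its F statistic. On the left is *ChAT-BKO* versus control at ZT8, at ZT20, and over both times. On the right is ZT20 versus ZT8 in controls, in *ChAT-BKO* neurons, and over both genotypes. The ringed point, *Grik2* over both genotypes at 0.27, is the single one with an adjusted p under 0.05.

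For time of day, 1 subunit passed the test. *Grik2*, which encodes GluK2, a kainate subunit that forms channels by itself, was at 10.1, 12.3, and 15.1 CPM at ZT8 and 13.7, 15.4, and 15.8 CPM at ZT20 in controls (lowest, median, and highest). In *ChAT-BKO* neurons it was at 12.6, 13.4, and 14.4 CPM at ZT8 and 11.4, 16.2, and 18.4 CPM at ZT20. In controls 4 of 6 ZT20 libraries were above all ZT8 libraries. In *ChAT-BKO* neurons 5 of 6 were, and the sixth was below all of them. The condition means were 12.5 ± 1.65 and 15.1 ± 0.756 CPM in controls and 13.4 ± 0.693 and 15.8 ± 2.52 CPM in *ChAT-BKO* neurons (SD).

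Within controls the log2 fold change of *Grik2* from ZT8 to ZT20 was 0.30 (SE 0.09, adjusted p = 0.348 from edgeR), and 0 of 9 subunits were called, beside 0.115% of all genes. Within *ChAT-BKO* neurons it was 0.24 (SE 0.10, adjusted p = 0.416 from edgeR), and again 0 of 9 were called, beside 0.285% of all genes. At unadjusted p under 0.05 there were 2 subunits in controls and 3 in *ChAT-BKO* neurons, against 8.25% and 9.42% of all genes, and DESeq2 and limma voom called 0 of 9 in each. Over both genotypes *Grik2* rose by 20.5%, a log2 fold change of 0.27 (SE 0.06, unadjusted p = 2.35e-04, adjusted p = 0.0163 from edgeR), the only call among the 9 subunits, beside 2.69% of all genes in this comparison. At an unadjusted p under 0.05 there were 4 of 9 subunits, against 14.1% of all genes. *Grik2* was called with any of the 24 libraries left out (0.23 to 0.30, adjusted p = 0.00299 to 0.0368) and under each alternative setting (adjusted p = 9.89e-04 to 0.0246). The effects in the 2 genotypes share no libraries, and their difference was -0.05 (SE 0.13).

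The median sums of 4 lists of other cell type markers were also higher at ZT20 than at ZT8 in both genotypes, with no test run on them. The microglia, excitatory neuron, astrocyte, and skeletal muscle lists were level or lower in at least 1 genotype. In controls and *ChAT-BKO* neurons, microglia medians were 12.6 and 13.3 CPM at ZT8 and 12.2 and 12.0 CPM at ZT20. Excitatory medians were 47.5 and 50.1 CPM, then 47.8 and 49.1 CPM. Astrocyte medians were 196 and 192 CPM, then 196 and 210 CPM, and muscle medians 21.6 and 4.16 CPM, then 8.28 and 52.1 CPM. The summed CPM of the 6 endothelial markers was 8.01 to 12.4 in controls and 8.07 to 12.9 in *ChAT-BKO* neurons at ZT8, and 10.4 to 19.3 and 11.0 to 16.4 at ZT20, with 161 CPM in the input and no marker at 0 in any library. Endothelial medians were 9.89 and 9.17 CPM at ZT8 and 13.6 and 12.5 CPM at ZT20, in controls and *ChAT-BKO* neurons. The 6 inhibitory neuron markers summed to 425 to 494 and 433 to 553 CPM at ZT8. At ZT20 they summed to 490 to 580 and 420 to 569 CPM. Inhibitory medians were 460 and 476 CPM, then 499 and 498 CPM, and the input held 1513. The medians of the 6 oligodendrocyte markers were 1858 and 1812 CPM at ZT8 and 1950 and 1921 CPM at ZT20 in controls and *ChAT-BKO* neurons, and those of the 6 oligodendrocyte precursor markers 15.4 and 15.0 CPM and 17.2 and 15.3 CPM, with 23266 and 219 CPM in the input. The median sum of the 7 cholinergic markers was lower at ZT20, also untested, at 4664 and 4478 CPM at ZT8 and 4505 and 4384 CPM at ZT20, with 584 in the input. *Grik2* itself was below the input in all 24 libraries. The part of any of these cells in the *Grik2* difference was not tested.

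*Gria2* and *Grik5* came near the threshold over both genotypes. *Gria2* was at 25.4, 27.6, and 29.6 CPM at ZT8 and 26.7, 29.7, and 31.9 CPM at ZT20 in controls (lowest, median, and highest), and at 21.3, 25.9, and 31.1 CPM and 26.8, 30.5, and 40.0 CPM in *ChAT-BKO* neurons. The time points overlapped in both genotypes, although all 6 ZT20 libraries of *ChAT-BKO* neurons were above the ZT8 median. The log2 fold change was 0.10 (SE 0.07) in controls, 0.33 (SE 0.11, adjusted p = 0.255 from edgeR) in *ChAT-BKO* neurons, and 0.21 (SE 0.07, adjusted p = 0.0898 from edgeR) over both.

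*Grik5*, the most abundant kainate subunit, was at 66.1, 76.0, and 84.2 CPM at ZT8 and 65.8, 68.9, and 72.6 CPM at ZT20 in controls, and at 67.2, 74.9, and 77.1 CPM and 57.0, 67.1, and 75.0 CPM in *ChAT-BKO* neurons. No ZT20 library was above the highest ZT8 library in either genotype. The log2 fold change was -0.14 in each genotype (SE 0.06) and -0.14 over both (SE 0.04, adjusted p = 0.0618 from edgeR). *Grik5* was called by DESeq2 (adjusted p = 0.00798) and without any 1 of 4 libraries, which at ZT8 were control replicates 1 and 6 and *ChAT-BKO* replicate 1, and at ZT20 *ChAT-BKO* replicate 2 (adjusted p = 0.0456, 0.0241, 0.0421, and 0.0326 from edgeR).

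The other 6 subunits were not called for time of day. *Gria1* differed by log2 -0.08 (SE 0.04, edgeR adjusted p = 0.354) over both genotypes. *Gria3*, at 103 to 138 CPM over the 24 libraries, had 0.01 (SE 0.05), and *Gria4*, at 112 to 143 CPM, had 0.00 (SE 0.04). *Grik1*, at 4.62 to 10.2 CPM, had 0.10 (SE 0.10), *Grik3*, at 3.93 to 10.8 CPM, -0.09 (SE 0.11), and *Grik4*, at 27.2 to 41.2 CPM, 0.01 (SE 0.06). *Grik1* and *Grik3*, with the fewest counts, have the largest SEs, which hold counting error and the spread between animals alike.

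Receptors are assembled and anchored with partner proteins, and 41 genes in 6 lists were counted beside the subunits. All 41 were tested. By library size 10 were above the input, beside 32.1% of all genes, with a median log2 ratio of -0.54. With TMM over 25 libraries 19 were, beside 43.7% of all genes, with a median of -0.11. The counts and ratios of each list are by library size. Of the 13 AMPA receptor auxiliary subunits 3 were above the input. *Cacng7*, which encodes a transmembrane AMPA receptor regulatory protein (TARP γ-7), had the highest level at 56.7 CPM per kb. *Cacng8* (TARP γ-8) had the highest ratio to the input at 0.51, and *Shisa9* (CKAMP44) the lowest at -2.36. Of 6 genes of AMPA receptor assembly in the endoplasmic reticulum 3 were above the input, from *Porcn* at 0.91 to *Frrs1l* at -2.70, and *Abhd12* had the highest level at 110 CPM per kb. Of 13 scaffold and trafficking genes 2 were, *Pick1* at 0.67 and *Nsf*, the ATPase that binds GluA2, at 0.43 and 137 CPM per kb, while *Nptx1*, which encodes a pentraxin that clusters AMPA receptors, was lowest at -2.62. *Grid1*, which encodes a delta family receptor, was at 0.02 and 10.0 CPM per kb.

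Of the editing enzymes, *Adarb1*, which encodes the enzyme of the site shown above, was nearest to the input. It was at 279 CPM (257 to 298 over 24 libraries) and 24.7 CPM per kb, with a log2 ratio of -0.06 to the input. *Adar* was at -0.40 and *Adarb2* at -0.67, each below the input in 24 of 24 libraries. By library size, 0 of the 3 editing enzymes had a median ratio above 0, beside 32.1% of all genes. Of all genes, 61.5% had a lower ratio than *Adarb1*. No editing enzyme was called in any of the 7 comparisons. The median log2 fold change of the 41 partners was 0.00 at ZT8 and 0.01 at ZT20 for *ChAT-BKO* versus control, and -0.02 for ZT20 versus ZT8 over both genotypes, where the median of all genes was 0.00, -0.01, and 0.00.

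*C1ql2* was the single partner gene called. It encodes a secreted C1q-like protein that recruits kainate receptors to synapses, and was the only one of the 4 kainate receptor partners above the input, with a median log2 ratio of 2.18 and 24 of 24 libraries above it. Of all genes 99.1% had a lower ratio. At ZT8 it was at 21.6, 23.5, and 25.3 CPM in controls and 15.8, 17.5, and 19.4 CPM in *ChAT-BKO* neurons (lowest, median, and highest), without overlap. At ZT20 it was at 19.2, 22.9, and 25.7 CPM in controls and 14.3, 17.4, and 20.8 CPM in *ChAT-BKO* neurons, with 4 of 6 below all controls.

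At ZT8 *C1ql2* fell by 25.2% (log2 fold change -0.42, SE 0.07, edgeR adjusted p = 0.0178), the 1 call among 41 partners beside 0.184% of all genes. At ZT20 the log2 fold change was -0.38 (SE 0.09, adjusted p = 0.0952 from edgeR), with 0 of 41 called, beside 0.230% of all genes (DESeq2 called *C1ql2*, adjusted p = 0.0118, and limma voom called 0). Over both times it fell by 24.2% (log2 fold change -0.40, SE 0.05, edgeR adjusted p = 2.76e-05), again the 1 call of 41, beside 0.741% of all genes. With any of the 24 libraries left out it was called over both times (adjusted p = 9.34e-06 to 1.02e-04). The call at ZT8 alone was lost without *ChAT-BKO* replicate 1 (adjusted p = 0.0650), 3 (0.0728), or 4 (0.0564) or control replicate 4 (0.0725), all from edgeR. The difference of its effects between the time points was 0.05 (SE 0.11), and its change from ZT8 to ZT20 over both genotypes was -0.02 (SE 0.05), neither of them called. For ZT20 versus ZT8, edgeR called 0 of 41 partners in controls, in *ChAT-BKO* neurons, and over both genotypes, beside 0.115%, 0.285%, and 2.69% of all genes. At an unadjusted p under 0.05 there were 2, 5, and 6 partners, against 8.25%, 9.42%, and 14.1% of all genes. DESeq2 called 1 partner over both genotypes, *Gsg1l*, beside 971 of 13730 genes. For the difference of effects 0 partners were called, beside 0% of all genes.

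Across libraries, 6 of the 9 subunits rose and fell with the length dependence of the library. The dependence of log2 CPM on log2 transcript length was fitted in each library as a slope, which ran from 0.09 to 0.34, with medians of 0.16 and 0.19 in controls and *ChAT-BKO* neurons at ZT8 and 0.17 and 0.19 at ZT20. A higher slope means relatively more reads on genes with long annotated transcripts, and the subunits are among the genes it was fitted on. Over 13721 genes with a mean of at least 1 CPM the median r with the slope was 0.04, and 21.9% of them had an r as high as the lowest of the 6 subunits. Over the 24 libraries and 9 relations, the level of *Grik4* followed the slope with Pearson's r = 0.78 (permutation p = 2.00e-05, adjusted p = 1.80e-04) and Spearman's rho = 0.77 (permutation p = 4.00e-05, adjusted p = 3.60e-04). Without the 2 libraries farthest from the median slope, *ChAT-BKO* replicate 3 at ZT20 and control replicate 5 at ZT8, r was 0.65. *Gria4* had r = 0.72 (permutation p = 4.00e-05, adjusted p = 1.80e-04) and rho = 0.61 (permutation p = 0.00205, adjusted p = 0.00922), with r = 0.56 without these libraries. *Gria3* had r = 0.65 (permutation p = 5.60e-04, adjusted p = 0.00168) and rho = 0.55 (permutation p = 0.00604, adjusted p = 0.0181), and 0.43 without them. *Gria2* had r = 0.58 (permutation p = 0.00291, adjusted p = 0.00655) and rho = 0.53 (permutation p = 0.00871, adjusted p = 0.0195), and 0.50 without them.

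*Gria1* had r = 0.53 (permutation p = 0.00890, adjusted p = 0.0160) and rho = 0.51 (permutation p = 0.0130, adjusted p = 0.0195), and *Grik1* r = 0.49 (permutation p = 0.0150, adjusted p = 0.0225) and rho = 0.50 (permutation p = 0.0125, adjusted p = 0.0195), with r = 0.51 and 0.48 without the 2 libraries. *Grik3* passed by rank alone, with r = 0.40 (permutation p = 0.0530, adjusted p = 0.0682) and rho = 0.44 (permutation p = 0.0312, adjusted p = 0.0401), and r = 0.34 without them. *Grik2* and *Grik5* did not pass, with r = 0.23 (permutation p = 0.272, adjusted p = 0.306) and rho = 0.17 (permutation p = 0.414, adjusted p = 0.466) for *Grik2* and r = 0.02 (permutation p = 0.925, adjusted p = 0.925) and rho = -0.05 (permutation p = 0.807, adjusted p = 0.807) for *Grik5*, and r = 0.11 and -0.08 without the 2 libraries. With condition means removed, r ran from 0.08 for *Grik5* to 0.79 for *Grik4*. With the slope as a covariate, *Grik2* had the same log2 fold change of 0.27 between time points (adjusted p = 0.00320 from edgeR), and *Gria2* and *Grik5* were called as well, at 0.19 (adjusted p = 0.0131) and -0.14 (adjusted p = 0.0105). This fit called 1537 of 21738 genes, against 585 without the slope.

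**Figure D5:**
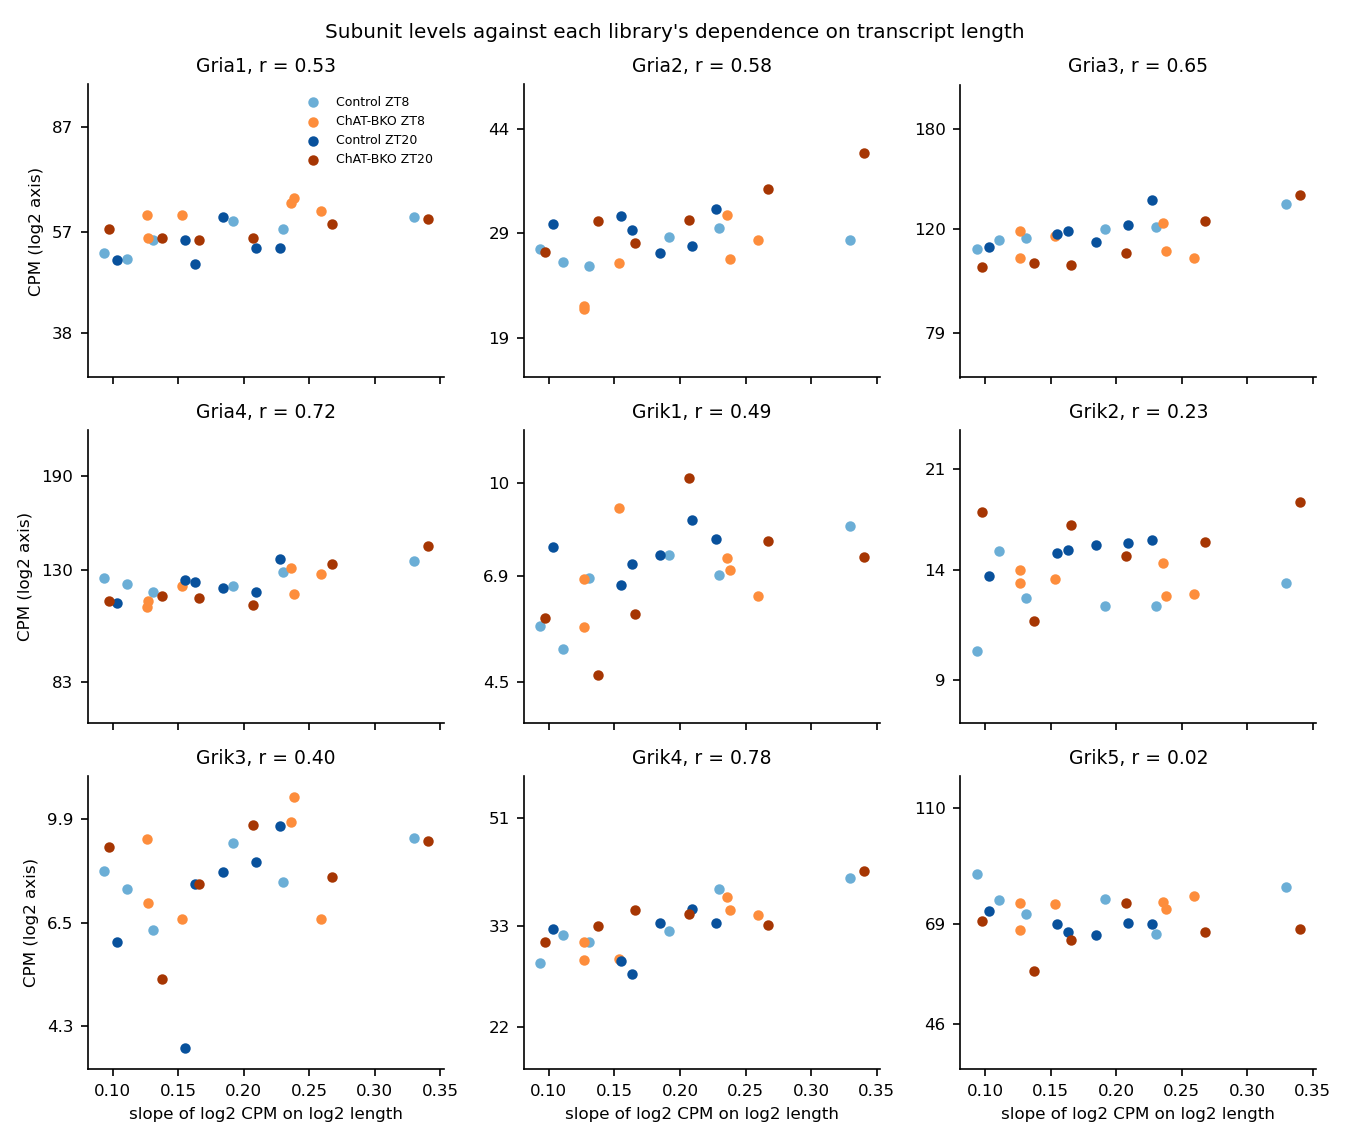
Level of each subunit (CPM, log2 axis) against the length slope of the same library (log2 CPM per log2 of transcript length), for the 24 IP libraries. *Grik4*, *Gria4*, and *Gria3* follow the slope most closely (r = 0.78, 0.72, and 0.65), and *Grik5* has the lowest r, 0.02.

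Some subunits also moved with each other. With condition means removed, the log2 CPM of *Gria2* and *Gria4* had r = 0.83 over the 24 libraries, *Gria3* and *Gria4* 0.80, and *Gria2* and *Gria3* 0.64, while *Gria1* and *Gria3* had 0.32 and *Gria4* and *Grik1* 0.23. *Gria1* had 0.39 with *Gria2* and 0.40 with *Gria4*. *Grik4*, of the kainate family, had 0.59 with *Gria1*, 0.52 with *Gria2*, 0.48 with *Gria3*, and 0.47 with *Gria4*. *Grik5* had 0.45 with *Grik1* and 0.35 with *Grik3*, 0.01 with *Gria1*, and -0.01 with *Gria3* and *Grik4*. These points share depth and the length slope of each library, and no test was run on them. Of 13720 genes with a mean of at least 1 CPM, the 3 most like *Gria4* in this respect were *Edil3*, *Fam135b*, and *Lamp2* (r = 0.89 for each, n = 24), and the 3 most like *Grik5* were *Celf4*, *Syne2*, and *Rusc2* (r = 0.81, 0.77, and 0.75).

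BMAL1 and its partner CLOCK bind the E-box CACGTG, a sequence that reads the same on both strands. RefSeq promoter windows of 300 bases around the gene start were searched for 6 subunits, *Gria2*, *Gria4*, *Grik2*, *Grik3*, *Grik4*, and *Grik5*. *Gria1*, *Gria3*, and *Grik1* had no window in the reference used. CACGTG was held by 0 of the 6, beside 7.15% of 32851 windows of this length in GRCm38 and 8.09% of 27025 genes. At such shares 0 of 6 would be common among any genes, so the count does not set the subunits apart.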

How the data were processed

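RNA-seq of 24 HA IP libraries (4 conditions of 6) and 1 pooled input from mouse spinal cord was used. Per the paper's methods, libraries were made from 300 ng of RNA with a stranded mRNA kit and read as 150-bp pairs, and the authors aligned reads to mm10 with STAR 2.7.5 and took gene counts with RSEM. The deposited values are these expected counts, neither normalized nor filtered (50559 genes, 25 columns). The strand setting of RSEM is not given in the sources used here. Rounding to whole numbers touched 6.11% of the values.

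Conditions and replicate numbers came from the sample labels. A sum of at least 10 counts across the 24 IP libraries was required of a gene, which 21738 genes met. These were normalized by TMM and tested in R 4.3.3 with edgeR 4.0.16 (quasi-likelihood F test, two-sided, Benjamini-Hochberg over all genes kept, called at an adjusted p under 0.05). Comparisons at 1 time point or in 1 genotype used their own 12 libraries. Those over both times or both genotypes used all 24 libraries with the other factor as a term, and the difference of effects used all 24 with 1 mean per condition. The test gives no SE, so SEs are the absolute log2 fold change divided by the square root of its F statistic. P-values measure the spread between these animals, all processed on the same day.

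CPM of the IP libraries is on TMM-scaled library sizes, and CPM of the input is on its plain library total. IP to input ratios are log2 CPM with a prior count of 2, by library size except where TMM over 25 libraries is named. Lengths came from a GRCm38 annotation matched by symbol, which covered all 9 subunits and 41 partners and 74.6% of the table (96% of the genes behind the length slopes). The symbols in the table follow another gene set in part, so lengths are approximate. Permutation tests of correlation used 100000 resamples.

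The genes named are the 9 subunits. In each of 6 lists of partners they are the gene of the highest CPM per kb, those of the highest and lowest ratio to the input, and any gene called, plus the 3 genes most like the leading AMPA and kainate subunit. Some values that this rule would name are not reported here. The subunits and lists were chosen with earlier results of these data known. *Adar*, *Nsf*, *Nptxr*, *Gsg1l*, *Cpt1c*, *Cacng5*, *Abhd6*, *Dlg2*, and *Epb41l1* were also named where a result turned on them, and where the rule did not name them this was done after their values were seen. The correlations with the length slope were added after seeing the data. Alternatives were DESeq2 1.42.0, limma 3.58.1 (voom with sample quality weights), DESeq2 size factors, no filter, filterByExpr, the replicate block, the length slope as a covariate, all 24 libraries, each library left out, other lengths, TMM with the input, and a prior count of 0.5. The fits were tested on simulated data with known changes larger than those of the subunits, so this test does not bear on small differences.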

Additional observations from a re-analysis of the deposited data

Results flagged for a closer look

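In the 6 control libraries at ZT20, *Grik2* had 1 library that stood apart on the low side. Replicate 2 was at 13.7 CPM, the next lowest library was at 15.0 CPM, and the highest was at 15.8 CPM, so that the gap took up 0.641 of the whole range and passed Dixon's 95% limit for 6 libraries. It was the 1 such case among 40 groups of 6 libraries looked at, and about 1 in 20 groups passes this limit by chance. *Grik2* remained called for ZT20 versus ZT8 over both genotypes with any 1 library left out, this one included (log2 fold change 0.23 to 0.30).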

How the results depend on the processing

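Of the subunit fold changes, the 1 call (*Grik2*, ZT20 versus ZT8 over both genotypes) held under all settings. The counts of subunits called differed from those in the report as follows. With the length slope as a covariate, 1 subunit was called for ZT20 versus ZT8 in controls (*Grik2*, 0.31, adjusted p = 0.0487 from edgeR), 1 in *ChAT-BKO* neurons (*Gria2*, 0.26, adjusted p = 0.0229), and 3 over both genotypes. Of 21738 genes, these fits called 360, 485, and 1537. Over both genotypes 2 were called with DESeq2 size factors, 2 with filterByExpr, and 2 with DESeq2, each adding *Grik5* (adjusted p = 0.0468, 0.0327, and 0.00798), and 1 to 2 with each library left out. Over all genes the first of these called 616 of 21738, the second 759 of 14389, and DESeq2 971 of 13730. Among partners, 1 was called at ZT20 (*C1ql2*) with the slope as a covariate (adjusted p = 0.0168), with all 24 libraries in the fit (0.0277), and with DESeq2 (0.0118). The first 2 of these fits called 168 and 61 of 21738 genes, and DESeq2 called 93 of 14987. With the slope as a covariate 1 partner was called in controls (*Cpt1c*), 1 in *ChAT-BKO* neurons (*Cacng5*), and 6 over both genotypes (*Cacng5*, *Gsg1l*, *Abhd6*, *Grid1*, *Dlg2*, *Epb41l1*), and 1 with DESeq2 (*Gsg1l*). The counts of all genes called in these fits are those given above for the subunits. With each library left out, partners called numbered 0 to 1 at ZT8 and 0 to 1 over both genotypes, where *Gsg1l* (-0.23, adjusted p = 0.0876 from edgeR) was called without control replicate 5 (0.0254) or 6 (0.0338) at ZT8. The cause of these changes was not tested.

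Directions that turned belong to small fold changes, none of them called. With the slope as a covariate, *Grik1* went to -0.04 for ZT20 versus ZT8 in *ChAT-BKO* neurons, *Gria2* to -0.03 for *ChAT-BKO* versus control over both times, and *Grik3* to -0.01 for the difference of effects. With each library left out, *Grik4* ran from -0.09 to 0.01 for *ChAT-BKO* versus control at ZT8, and over both times *Gria2* ran from -0.03 to 0.04 and *Grik1* from -0.06 to 0.03. For ZT20 versus ZT8, *Gria3* ran from -0.02 to 0.05 in controls, in *ChAT-BKO* neurons *Gria4* ran from -0.02 to 0.06, *Grik1* from -0.10 to 0.09, and *Grik3* from -0.12 to 0.03, and over both genotypes *Gria3* ran from -0.02 to 0.02 and *Grik4* from -0.02 to 0.04. The difference of effects ran from -0.07 to 0.03 for *Gria3*, from -0.11 to 0.02 for *Grik2*, and from -0.06 to 0.16 for *Grik3*.

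Subunit shares depended on the length used. In place of the shares per kb of exon, the longest transcript, the coding length, and plain counts gave 17.8%, 17.4%, and 17.6% for *Gria1*, 38.5%, 36.1%, and 35.8% for *Gria3*, 38.9%, 37.6%, and 37.8% for *Gria4*, and 3.18%, 6.13%, and 5.87% for *Grik3*. The coding length and plain counts gave 8.88% and 8.75% for *Gria2*, 11.3% and 10.7% for *Grik2*, and 52.3% and 53.3% for *Grik5*, and the longest transcript gave 7.04% for *Grik1* and 20.5% for *Grik4*. With TMM over 25 libraries the log2 ratios to the input were -0.87 for *Gria1*, -1.56 for *Gria2*, 0.57 for *Gria3*, 0.08 for *Gria4*, -1.04 for *Grik1*, -0.63 for *Grik2*, -2.08 for *Grik3*, 0.55 for *Grik4*, and 0.19 for *Grik5*, of which *Gria4* and *Grik5* changed sign.

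The replicate numbers are shared by the conditions, but taken over all pairs, libraries of the same number did not deviate together (36 pairs, r from -0.278 to 0.377, median 0.007, 9 over 0.1). Between controls at ZT8 and ZT20, r was 0.377 for replicate 2, 0.2 for replicate 6, and -0.01 to 0.094 for the others. The replicate block changed no count of subunits or partners called, with *Grik2* at 0.27 (adjusted p = 0.0225 from edgeR) over both genotypes. Over all genes the block raised the calls from 40 to 69 at ZT8 and from 25 to 86 for ZT20 versus ZT8 in controls.

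Over all genes, calls in edgeR numbered 40 and 50 for *ChAT-BKO* versus control at ZT8 and ZT20, 25 and 62 for ZT20 versus ZT8 in controls and *ChAT-BKO* neurons, 161 over both times, and 585 over both genotypes. With the slope as a covariate they numbered 165, 168, 360, 485, 405, and 1537, and 1 for the difference of effects. DESeq2 called 70, 93, 127, 218, and 971 (over both genotypes), and all 24 libraries in the fit gave 140 in *ChAT-BKO* neurons. With each library left out they ran from 19 to 42, 29 to 69, 11 to 28, and 33 to 56 in the first 4, and from 126 to 199 and 448 to 628 in the last. The share of calls that were higher at ZT20 fell from 84.0% to 54.7% in controls, from 80.6% to 58.8% in *ChAT-BKO* neurons, and from 62.7% to 51.2% over both genotypes with the slope as a covariate, and to 57.5%, 62.8%, and 52.5% with DESeq2. With filterByExpr it was 73.1% in controls, and with the replicate block 72.1%.

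The input is 1 library, and its ratios carry no replicate error. *Grik1*, *Grik2*, and *Grik3* had as few as 24, 52, and 27 counts in a library, so counting error is largest for them.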

Other observations

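*Nptxr*, which encodes a neuronal pentraxin receptor of AMPA receptor clusters, varied more between libraries than the other listed partners of like level. It was at 10.3 CPM on average over the 24 IP libraries, with 0.729 CPM in *ChAT-BKO* replicate 4 at ZT8 and 24.4 CPM in control replicate 5 at ZT8, and 4 of 24 libraries were above the input. These values were picked out after they were seen, and no test was run on them.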
